A study of Mus musculus with 7 samples.

Results

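The interleukin-1 (IL-1) family and inflammasome genes are a set of 10 genes, taken by name from the 28987 genes listed in the deposited table. All 10 were found: the ligands Il1b, Il1a and Il1f9, the receptor antagonist Il1rn, the receptor chains Il1r2 and Il1rap, the sensor Nlrp3, the adaptor Pycard, and the caspases Casp1 and Casp4. The 7 RNA libraries, in 6 groups, came from bone marrow, each of 1 C57BL/6 mouse. HSC/P libraries (hematopoietic stem and progenitor cells, enriched on CD117, with the mutant clone sorted from them by flow cytometry) were 2 of RUNX1mut/HMGA2-OE, which carries a RUNX1 mutation together with HMGA2 overexpression, and 1 of HMGA2-OE alone. Ly6G+ libraries, of sorted myeloid cells, were 1 each of RUNX1mut/HMGA2-OE, RUNX1mut, HMGA2-OE and Control. Every HSC/P library therefore carried HMGA2-OE, and no Ly6G+ genotype had a replicate. The labels used here do not say which RUNX1 mutation was made, what drives HMGA2, or the age of the mice.

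IL-1 beta and IL-1 alpha are inflammatory cytokines that signal through a receptor made of IL1R1 and the accessory chain encoded by Il1rap. IL-1 beta is made as an inactive precursor, which caspase-1 cleaves once a sensor such as NLRP3 has joined with the adaptor ASC (Pycard) into an inflammasome. The receptor antagonist Il1rn occupies the receptor without signalling, and the decoy receptor Il1r2 binds IL-1 without signalling. Neutrophils are a known source of IL-1 beta, and IL-1 acts on hematopoietic stem cells and favours the formation of myeloid cells.

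Levels are in TPM, each gene's share of all transcripts after correction for transcript length, so that levels can be set side by side between genes. Read depth is unknown, and the number of libraries limits the precision. S100a8, which encodes an abundant calcium-binding protein of neutrophils, took 1.03% to 3.79% of TPM in HSC/P. In Ly6G+ cells it took 3.11% in RUNX1mut/HMGA2-OE, against 40.2% to 55.0% in the other 3 libraries. Because such a share lowers every other gene's TPM, the tests used TPM scaled by a trimmed mean of log ratios, and levels are given as deposited unless they are called scaled. Hmga2 was at 138 to 176 TPM in HSC/P. In Ly6G+ cells Hmga2 was at 12.1 TPM in RUNX1mut/HMGA2-OE and 3.72 TPM in HMGA2-OE, against 1.36 TPM in RUNX1mut and 1.45 TPM in Control. Runx1 was at 219 and 225 TPM in RUNX1mut/HMGA2-OE HSC/P against 18.9 TPM in HMGA2-OE HSC/P. Among Ly6G+ libraries its level was 21.2 TPM in RUNX1mut/HMGA2-OE and 11.6 TPM in RUNX1mut against 3.36 TPM in HMGA2-OE and 3.85 TPM in Control. The 13 neutrophil markers summed to 18080 to 63410 TPM in HSC/P and 312000 to 680000 TPM in Ly6G+ cells, and the 10 stem and progenitor markers to 494 to 955 TPM in HSC/P and 12.2 to 46.5 TPM in Ly6G+ cells, in the direction of the labelled cell types. None of these markers was at 0 in any library. The 12 monocyte and macrophage markers summed to 353 to 990 TPM in HSC/P and 886 to 1480 TPM in Ly6G+ cells. Ly6c2 carried most of these sums in the Ly6G+ libraries and in HMGA2-OE HSC/P. In RUNX1mut/HMGA2-OE HSC/P it made 182 of 536.5 TPM and 176 of 353.5 TPM. Of the 12 markers 6, such as Ccr2, F13a1 and C1qa, were higher in every HSC/P library than in any Ly6G+ library.

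Il1a and Il1b lie 54.6 kb apart on chromosome 2 on the same strand. The Il1b gene spans chr2:129364570-129371139 and the Il1a gene chr2:129299610-129309972, both on the minus strand (mm10, annotation of GENCODE M21). Casp1 (chr9:5298517-5307265) and Casp4 (chr9:5308828-5336783), both on the plus strand, are 1562 bases apart. Nlrp3 spans chr11:59541568-59566956 on the plus strand. The 250 bases before the RefSeq start (GRCm38.p6, the assembly also called mm10) are shown for the 2 IL-1 ligands because they are neighbours with very unlike levels, and for Nlrp3 and Casp4 because these were the members with an NF-kB motif there. Capitals mark motif matches on either strand: TATAAA, the AP-1 motif TGANTCA, the PU.1 motif GAGGAA and the NF-kB motif. The windows are chr2:129371140-129371389 (minus strand) for Il1b, chr2:129309973-129310222 (minus strand) for Il1a, chr11:59541319-59541568 (plus strand) for Nlrp3 and chr9:5308599-5308848 (plus strand) for Casp4.
Il1b: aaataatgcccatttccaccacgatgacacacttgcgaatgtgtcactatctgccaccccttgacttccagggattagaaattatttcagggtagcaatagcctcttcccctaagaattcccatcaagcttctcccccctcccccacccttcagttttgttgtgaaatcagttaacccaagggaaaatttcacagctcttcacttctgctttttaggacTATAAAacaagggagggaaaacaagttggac
Il1a: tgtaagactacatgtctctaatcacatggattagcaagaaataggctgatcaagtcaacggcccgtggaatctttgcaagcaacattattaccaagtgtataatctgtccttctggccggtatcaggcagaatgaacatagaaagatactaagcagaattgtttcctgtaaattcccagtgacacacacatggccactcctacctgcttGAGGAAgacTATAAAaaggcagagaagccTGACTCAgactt
Nlrp3: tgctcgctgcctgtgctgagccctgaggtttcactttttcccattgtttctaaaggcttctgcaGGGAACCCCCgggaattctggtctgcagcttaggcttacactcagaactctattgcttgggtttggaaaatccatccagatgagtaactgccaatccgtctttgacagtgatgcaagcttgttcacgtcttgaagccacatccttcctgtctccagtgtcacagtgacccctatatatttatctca
Casp4: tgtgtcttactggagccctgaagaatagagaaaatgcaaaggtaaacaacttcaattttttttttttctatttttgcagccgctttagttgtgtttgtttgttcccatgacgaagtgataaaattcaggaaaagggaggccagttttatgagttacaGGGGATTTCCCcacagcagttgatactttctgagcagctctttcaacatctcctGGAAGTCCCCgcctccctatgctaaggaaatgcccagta
The TATAAA letters ended 26 bases before the start in Il1b and 27 bases before it in Il1a, and no other member had them. Over the 32851 RefSeq promoter windows of this length, 12.4% held TATAAA. In Casp4 the NF-kB motif lay 83 to 93 bases before the start, where 2 overlapping matches run together, and again 30 to 39 bases before it. In Nlrp3 it lay 177 to 186 bases before the start, and the motif was in 7.25% of all windows. The RUNX motif, searched as TGTGGT and TGCGGT on both strands, was in 18.6% of all windows and in 0 of the 14 windows that RefSeq gives for the 10 members. Letters of the AP-1 motif, a pattern that matches both strands at once, were found in 2 of the 14 windows, of Il1a and Il1rn, against 6.75% of all windows. PU.1 letters were in 5 of the 14 windows, each of another member, against 23.3% of all windows. These matches describe letters in a window and say nothing of whether a factor binds there.

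The 3 ligand genes had unlike levels. Il1b was at 3.35 and 1.59 TPM in RUNX1mut/HMGA2-OE HSC/P and 2.34 TPM in HMGA2-OE HSC/P. In Ly6G+ cells Il1b was at 415 TPM in RUNX1mut/HMGA2-OE, 722 TPM in RUNX1mut, 2337 TPM in HMGA2-OE and 597 TPM in Control. All 3 HSC/P libraries lay far below all 4 Ly6G+ libraries, and within Ly6G+ cells the HMGA2-OE library stood above the other 3. Il1b made up 1.40% to 2.40% of the summed TPM of the 10 members in HSC/P, and 38.8% to 81.5% in Ly6G+ cells.

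Il1a, the neighbouring gene, stayed under 1 TPM in every library. It was at 0.354 and 0.183 TPM in RUNX1mut/HMGA2-OE HSC/P and 0.730 TPM in HMGA2-OE HSC/P. In Ly6G+ cells Il1a was at 0.130 TPM in RUNX1mut/HMGA2-OE, 0.185 TPM in RUNX1mut, 0.106 TPM in HMGA2-OE and 0.0225 TPM in Control. It was therefore left out of every fit. The genes overlapping these ligands on the opposite strand were low too: Il1bos, antisense to Il1b, was at 0.959 to 2.23 TPM over the 7 libraries. Whether reads were counted by strand is not given in the sources used here, so reads of the partners of such a pair may not be separable.

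Il1f9 encodes IL-36 gamma, a cytokine that signals through IL1RL2 and the accessory chain of Il1rap. It was at 2.06 and 1.75 TPM in RUNX1mut/HMGA2-OE HSC/P and 10.9 TPM in HMGA2-OE HSC/P. In Ly6G+ cells Il1f9 was at 322 TPM in RUNX1mut/HMGA2-OE, 182 TPM in RUNX1mut, 169 TPM in HMGA2-OE and 180 TPM in Control. Every Ly6G+ library was above every HSC/P library, and among HSC/P the HMGA2-OE library was the highest. Its neighbours in the gene cluster on chromosome 2 were at or near 0: Il1f6 was listed at 0 in all 7 libraries, and Il1f8 reached 0.251 TPM at most.

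Il1rn, the antagonist, was at 1.51 and 0.719 TPM in RUNX1mut/HMGA2-OE HSC/P and 2.08 TPM in HMGA2-OE HSC/P. In Ly6G+ cells Il1rn was at 158 TPM in RUNX1mut/HMGA2-OE, 90.6 TPM in RUNX1mut, 101 TPM in HMGA2-OE and 123 TPM in Control. The cell types did not overlap. The ratio of Il1b to Il1rn TPM does not depend on the scaling of a library. It was between 1.13 and 2.21 in HSC/P. In Ly6G+ cells it was 2.62 in RUNX1mut/HMGA2-OE, 7.96 in RUNX1mut, 23.1 in HMGA2-OE and 4.86 in Control.

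**Figure D1:**
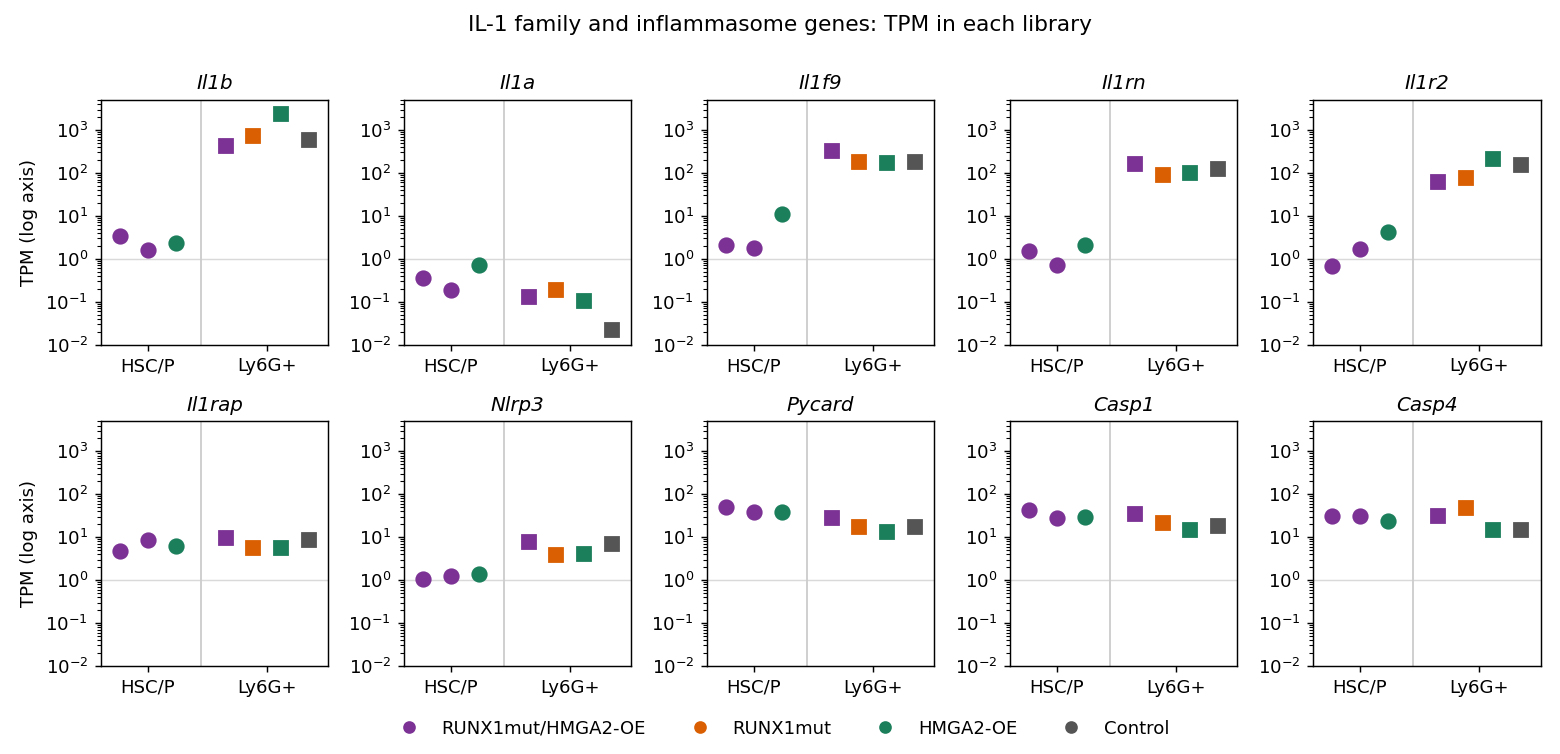
TPM of each of the 10 members (log axis) in the 3 HSC/P libraries (circles) and the 4 Ly6G+ libraries (squares), coloured by genotype, with 1 point per library and a grey line at 1 TPM. Il1b, Il1f9, Il1rn, Il1r2 and Nlrp3 were higher in every Ly6G+ library than in any HSC/P library, Pycard was lower, and Il1a stayed under 1 TPM throughout.

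The decoy receptor and the signalling receptor had opposite patterns. Il1r2 was at 0.664 and 1.69 TPM in RUNX1mut/HMGA2-OE HSC/P and 4.28 TPM in HMGA2-OE HSC/P. In Ly6G+ cells Il1r2 was at 62.2 TPM in RUNX1mut/HMGA2-OE, 75.8 TPM in RUNX1mut, 207 TPM in HMGA2-OE and 154 TPM in Control. Within Ly6G+ cells both libraries with the RUNX1 mutation were below both without it. Il1r1, which encodes the signalling chain and lies 99848 bases from Il1r2, was at 4.76 and 13.2 TPM in RUNX1mut/HMGA2-OE HSC/P and 2.72 TPM in HMGA2-OE HSC/P, against 0.103 to 0.326 TPM in the 4 Ly6G+ libraries. The accessory chain Il1rap was at similar TPM in both cell types, with 4.89 and 8.52 TPM in RUNX1mut/HMGA2-OE HSC/P and 6.38 TPM in HMGA2-OE HSC/P. In Ly6G+ cells Il1rap was at 9.73 TPM in RUNX1mut/HMGA2-OE, 5.52 TPM in RUNX1mut, 5.49 TPM in HMGA2-OE and 8.83 TPM in Control, and the ranges of the cell types overlapped.

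Of the inflammasome genes, the sensor was the lowest. Nlrp3 was at 1.09 and 1.22 TPM in RUNX1mut/HMGA2-OE HSC/P and 1.36 TPM in HMGA2-OE HSC/P. In Ly6G+ cells Nlrp3 was at 7.65 TPM in RUNX1mut/HMGA2-OE, 3.90 TPM in RUNX1mut, 4.03 TPM in HMGA2-OE and 6.83 TPM in Control, without overlap with HSC/P. Pycard went the other way as deposited, with 50.5 and 38.4 TPM in RUNX1mut/HMGA2-OE HSC/P and 39.5 TPM in HMGA2-OE HSC/P. In Ly6G+ cells Pycard was at 28.7 TPM in RUNX1mut/HMGA2-OE, 17.1 TPM in RUNX1mut, 12.999 TPM in HMGA2-OE and 17.3 TPM in Control. Every HSC/P library was above every Ly6G+ library.

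Casp1, whose product cleaves the IL-1 beta precursor, was at 44.2 and 28.2 TPM in RUNX1mut/HMGA2-OE HSC/P and 30.4 TPM in HMGA2-OE HSC/P. In Ly6G+ cells Casp1 was at 34.5 TPM in RUNX1mut/HMGA2-OE, 21.003 TPM in RUNX1mut, 14.4 TPM in HMGA2-OE and 18.7 TPM in Control. The cell types overlapped through the RUNX1mut/HMGA2-OE Ly6G+ library. Casp4 encodes caspase-11 in the mouse, which binds bacterial lipopolysaccharide inside the cell. It was at 31.0 and 31.4 TPM in RUNX1mut/HMGA2-OE HSC/P and 24.2 TPM in HMGA2-OE HSC/P. In Ly6G+ cells Casp4 was at 31.7 TPM in RUNX1mut/HMGA2-OE, 47.3 TPM in RUNX1mut, 15.0 TPM in HMGA2-OE and 14.4 TPM in Control, so that the RUNX1mut library was the highest of all 7.

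Only the genotypes with HMGA2-OE were profiled in both cell types, so HSC/P were compared with Ly6G+ cells in those 5 libraries with limma, with the RUNX1 mutation as a second term. Of 12686 genes tested, 64.7% passed an adjusted p of 0.05, with 32.2% higher and 32.5% lower in HSC/P. Of the 10 members 9 were tested and all 9 were lower in HSC/P, with a median log2 difference of -2.97 against 0.10 over all genes. Il1b was lower by the largest amount, with a log2 difference of -9.62 ± 0.91 (adjusted p = 0.00179). Il1rn followed with -7.23 ± 0.19 (adjusted p = 0.000618), Il1f9 with -7.18 ± 0.40 (adjusted p = 0.000747) and Il1r2 with -6.61 ± 0.48 (adjusted p = 0.00108). The order among these 4 was not tested. Nlrp3 had a log2 difference of -2.97 ± 0.18 and Il1rap of -1.87 ± 0.26, while Casp4 was at -1.54 ± 0.15, Casp1 at -1.36 ± 0.24 and Pycard at -0.82 ± 0.18 (adjusted p = 0.0172). As TPM, with no scaling, HSC/P lay below every Ly6G+ library for 5 of the 9 members against 8.80% of all genes, and above every Ly6G+ library for 1 member, Pycard, against 67.6%.

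The direction held under every scaling for Il1b, Il1rn, Il1f9, Il1r2, Nlrp3 and Il1rap, but not for the adaptor and the caspases. With TPM as deposited the log2 difference was 0.999 for Pycard, 0.46 for Casp1 and 0.27 for Casp4, none of them past the threshold, and that of Il1rap was -0.22 (adjusted p = 0.622). The median of all genes was then 1.46, so that all 4 of these genes lay below it. With no scaling 87.9% of the called genes were higher in HSC/P, against 49.7% after the trimmed-mean scaling. The call of Pycard was also lost without the HMGA2-OE HSC/P library (adjusted p = 0.0621), without the HMGA2-OE Ly6G+ library (adjusted p = 0.0529) and without the RUNX1mut/HMGA2-OE Ly6G+ library (adjusted p = 0.0514), and its adjusted p lay between 0.00863 and 0.263 over all alternatives tried. In bulk RNA fewer cells of a type and less RNA per cell cannot be told apart, and the neutrophil markers listed above moved with the cell type. The p-values apply to these libraries only. Their error rests on 2 residual degrees of freedom. These are the RUNX1mut/HMGA2-OE HSC/P pair and the change of the RUNX1 difference between the cell types.

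**Figure D2:**
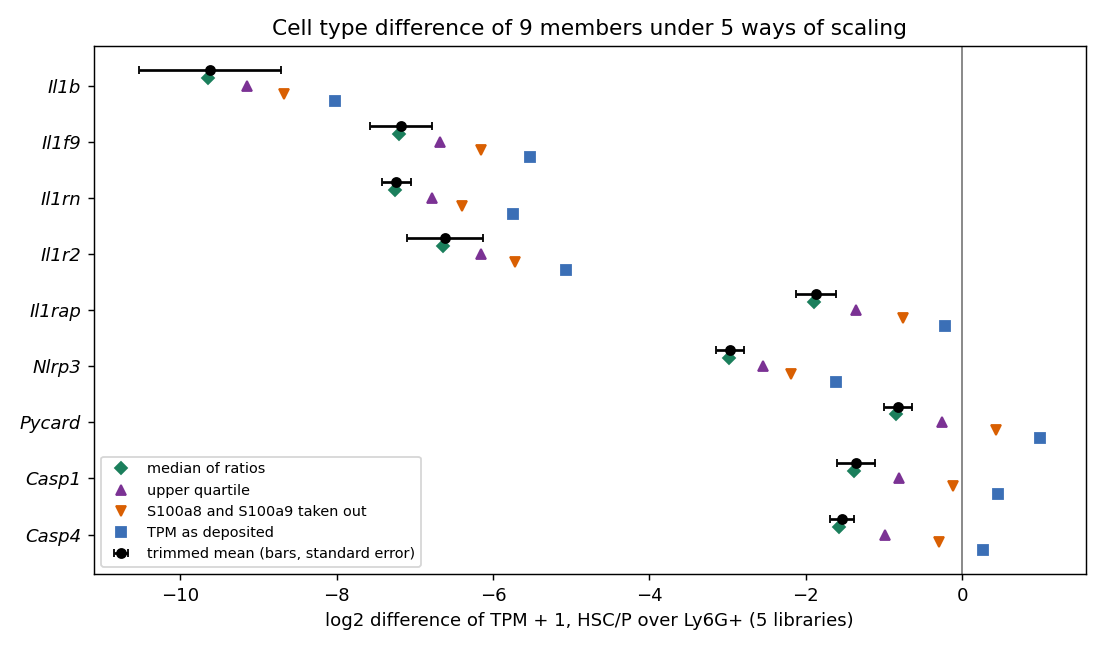
Log2 difference between HSC/P and Ly6G+ cells of the 9 tested members in the 5 libraries with HMGA2-OE, where negative values are lower in HSC/P, under 5 ways of scaling the libraries (symbols), with standard errors for the trimmed mean. Il1b, Il1f9, Il1rn, Il1r2, Nlrp3 and Il1rap stayed below 0 under all 5, whereas Pycard, Casp1 and Casp4 crossed it with TPM as deposited and Pycard also with S100a8 and S100a9 taken out.

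Other genes of the pathway were counted in the same comparison, from lists chosen by function. Of 7 other ligands and antagonists only Il18bp, which binds and blocks IL-18, reached the filter. Il18bp was at 5.17 and 5.202 TPM in RUNX1mut/HMGA2-OE HSC/P and 4.59 TPM in HMGA2-OE HSC/P, against 55.6 TPM in RUNX1mut/HMGA2-OE and 19.8 TPM in HMGA2-OE Ly6G+ cells, with a log2 difference of -4.33 ± 0.15 (adjusted p = 0.000618). Il18 itself was listed at 0 in all 7 libraries, and Il33 did not exceed 0.118 TPM. All 6 other receptors passed, 4 higher and 2 lower in HSC/P, and all kept their direction under every scaling. Il1r1 had a log2 difference of 1.502 ± 0.47 (adjusted p = 0.0463), Sigirr, an inhibitory receptor of the family, of 1.30 ± 0.23, Il1rl1, the IL-33 receptor, of 1.28, and Il1rl2, the IL-36 receptor, of 0.75. The IL-18 receptor chains Il18rap and Il18r1 were lower in HSC/P by log2 differences of -3.21 and -1.84.

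Of 13 genes of IL-1 receptor signalling 1 was higher and 8 were lower in HSC/P. Tab2, an adaptor of the kinase TAK1, was the higher one, with a log2 difference of 1.77. The lower ones were the adaptor Myd88 at -4.17, the kinases Irak2 at -2.73, Irak3 at -3.07 and Irak4 at -2.32, the ubiquitin ligases Peli1 at -1.98, Peli2 at -1.62 and Traf6 at -0.47, and Tollip at -1.57. Tollip turned positive with TPM as deposited, and Traf6 passed as higher in HSC/P there (1.18, adjusted p = 0.0116) and with S100a8 and S100a9 taken out (0.69, adjusted p = 0.0175). Among 21 tested genes of other inflammasomes 3 were higher and 12 lower. Aim2, a sensor of DNA, was at 53.5 and 38.0 TPM in RUNX1mut/HMGA2-OE HSC/P and 60.2 TPM in HMGA2-OE HSC/P, against 3.57 to 7.58 TPM in the 4 Ly6G+ libraries (log2 difference 1.34 ± 0.42, adjusted p = 0.0470). The other higher ones were Casp12 at 1.33 and the channel Panx1 at 1.31. Nlrp12, a gene of the NLR sensor family, had a log2 difference of -4.78 ± 0.19. The gasdermins Gsdme, at -4.69, and Gsdmd, at -3.13, whose products form membrane pores, were lower as well. The remaining 9 were Card19 at -3.28, Pstpip1 at -2.79, Ninj1 at -2.38, Txnip at -2.25, Gbp2 at -2.23, Nlrp1a at -1.60, Naip2 at -1.37, Nek7 at -0.89 and Naip5 at -0.54, of which Naip2 and Nek7 turned positive with TPM as deposited. Naip5 passed as higher in HSC/P with TPM as deposited (1.07, adjusted p = 0.0177) and with S100a8 and S100a9 taken out (0.61, adjusted p = 0.0273).

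The neutrophil serine proteases, which can process IL-1 family cytokines outside the inflammasome, were higher in HSC/P, with log2 differences of 2.46 ± 0.38 for Elane, 3.79 ± 0.56 for Prtn3 and 4.40 ± 0.45 for Ctsg. Elane was at 1307 and 833 TPM in RUNX1mut/HMGA2-OE HSC/P and 1359 TPM in HMGA2-OE HSC/P, against 101 TPM in RUNX1mut/HMGA2-OE and 26.7 TPM in HMGA2-OE Ly6G+ cells. Capn1, a calpain, was lower at -1.22 and turned positive with TPM as deposited. Of 13 tested genes that IL-1 and NF-kB induce 2 were higher in HSC/P, Nfkb1 at 1.01 and Sod2 at 0.85, and 8 were lower. The lower ones were the chemokines Cxcl2 at -5.45 and Ccl3 at -2.10, the cytokine Tnf at -2.91, the NF-kB regulators Nfkbiz at -4.04, Nfkbia at -3.58 and Tnfaip3 at -1.59, and the subunits Relb at -1.96 and Rel at -1.20, of which Rel turned positive with TPM as deposited. In each of these 6 lists the share of tested genes that passed was at or above the 64.7% of all genes, so that a call in this comparison does not set a gene apart.

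In HSC/P, RUNX1mut/HMGA2-OE was compared with HMGA2-OE in 3 libraries, where the single HMGA2-OE library was assumed to vary like the pair. No member passed, nor did any of the 12226 genes (0% called by limma, with 1908 genes at an unadjusted p under 0.05 and a smallest adjusted p of 0.112). The members with the largest differences were Il1f9, at 2.06 and 1.75 TPM in RUNX1mut/HMGA2-OE against 10.9 TPM in HMGA2-OE, with a log2 difference of -2.17 ± 0.28 (adjusted p = 0.144), and Il1r2, with a log2 difference of -1.44 ± 0.43 (adjusted p = 0.277). In an additive fit to all 7 libraries, which takes 1 RUNX1 difference for both cell types, Il1f9 was at -0.90, and at -0.78 and -0.74 without 1 of the RUNX1mut/HMGA2-OE HSC/P libraries. The other 7 tested members lay between -0.67 for Il1rn and 0.19 for Casp4. The 9 members had a median of -0.13, against -0.02 over all genes. All neutrophil markers but Cxcr2 and Csf3r differed in the same direction as Il1f9 and Il1r2. Ly6g was at 7.28 and 16.8 TPM in RUNX1mut/HMGA2-OE HSC/P against 136 TPM in HMGA2-OE HSC/P. The 13 neutrophil markers summed to 18080 and 18930 TPM against 63410 TPM, mostly from S100a8 and S100a9. Cxcr2, at 30.1 and 26.0 TPM against 16.4 TPM, and Csf3r, at 70.5 and 62.3 TPM against 42.4 TPM, were higher in RUNX1mut/HMGA2-OE. The part of neutrophil transcripts in the values of Il1f9 and Il1r2 was not tested. The pair of RUNX1mut/HMGA2-OE libraries itself differed by a ratio of 2.54 for Il1r2 and 0.475 for Il1b (the second over the first), and of 0.851 for Il1f9.

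Pathway genes in that comparison gave no call either. Il1rl1 was at 16.4 and 16.5 TPM in RUNX1mut/HMGA2-OE against 5.22 TPM in HMGA2-OE HSC/P, and Sigirr at 33.5 and 43.8 TPM against 16.7 TPM. Casp12, the gene next to Casp4, was at 13.4 and 7.505 TPM in RUNX1mut/HMGA2-OE against 1.51 TPM in HMGA2-OE HSC/P, with a log2 difference of 2.03 ± 0.43 (adjusted p = 0.209). Capn2, a calpain gene, was at 23.8 and 25.8 TPM against 2.01 TPM, with a log2 difference of 2.97 ± 0.19 (adjusted p = 0.112). These 4 genes were picked after their values were seen. Of the other lists, 3 of 6 receptors, 7 of 13 signalling genes, 15 of 20 inflammasome genes, 1 of 5 proteases and 7 of 11 induced genes were on the higher side in RUNX1mut/HMGA2-OE, against 48.1% of all genes.

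In Ly6G+ cells the RUNX1 mutation and HMGA2-OE were fitted as additive terms over the 4 libraries. With 1 library per genotype, the 1 residual degree of freedom is the departure from additivity. The errors and p-values of both terms therefore rest on that departure and not on a spread between replicates. For the RUNX1 term none of 9820 genes passed (0%; 1407 had an unadjusted p under 0.05, and the smallest adjusted p was 0.331). Il1r2 had a log2 difference of -2.04 ± 0.53 (adjusted p = 0.342) and Il1rn of -0.57 ± 0.10 (adjusted p = 0.331). With TPM as deposited the value of Il1rn was 0.10, where the median of all genes was 0.58. Il1b had -1.79 ± 1.16 and Casp4 0.69 ± 0.50, with adjusted p of 0.509 and 0.537. Without the HMGA2-OE library Il1b was at -0.06 and without the RUNX1mut/HMGA2-OE library at -0.04, in additive fits to the other 6 libraries of the study. The 9 members had a median of -0.53 against 0.01 over all genes, and 7 of 9 were on the lower side. For the HMGA2-OE term again 0% passed (639 genes at an unadjusted p under 0.05, smallest adjusted p 0.256), and no member had an unadjusted p under 0.05. Il1b had a log2 difference of 0.46 ± 1.16 there, and the members' median was 0.04 against 0.01 over all genes.

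The additive terms averaged over pairs that differed, so the single libraries were also set against each other as ratios of scaled TPM with 1 TPM added. These have no replicate check and no test. Scaled Il1b was at 263 TPM in RUNX1mut/HMGA2-OE, 708 TPM in RUNX1mut, 3384 TPM in HMGA2-OE and 662 TPM in Control Ly6G+ cells. The HMGA2-OE library was thus 5.10 times the Control library and the RUNX1mut/HMGA2-OE library the lowest. Scaled Il1r2 was at 39.4 TPM in RUNX1mut/HMGA2-OE, 74.4 TPM in RUNX1mut, 300 TPM in HMGA2-OE and 171 TPM in Control. Scaled Casp4 was at 20.1 TPM in RUNX1mut/HMGA2-OE, 46.5 TPM in RUNX1mut, 21.7 TPM in HMGA2-OE and 16.0 TPM in Control, so that the RUNX1mut library alone was high. The RUNX1mut/HMGA2-OE library, the lowest for Il1b and Il1r2, was also the lowest of the 4 for S100a8 with TPM as deposited. The other 12 neutrophil markers and 11 of the 12 monocyte and macrophage markers were highest in it as deposited. Scaling divides TPM by 1.58 in this library and by 0.690 to 1.02 in the other 3, and the markers were not ranked after scaling. As deposited, the 9 erythroid markers of the RUNX1mut/HMGA2-OE library summed to 5816 TPM, of which Hbb-bs made 4934 TPM, against 78.4 to 316 TPM in the other 3 libraries. The 8 B lymphoid markers summed to 71.8 TPM in RUNX1mut and 63.4 TPM in RUNX1mut/HMGA2-OE. In HMGA2-OE and Control they summed to 15.5 and 21.7 TPM. The 8 mast cell, basophil and eosinophil markers summed to 446 TPM in RUNX1mut and 467 TPM in RUNX1mut/HMGA2-OE, against 321 and 340 TPM. The part of these markers' cells in the values was not tested. Casp1 and Pycard varied little after scaling: Casp1 was at 20.6 to 21.9 TPM and Pycard at 16.8 to 19.2 TPM over the 4 libraries.

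For RUNX1mut/HMGA2-OE over HMGA2-OE, none of the 9 members was at least 2-fold higher (4.93% of all genes) and 2 were at least 2-fold lower (4.99%), Il1b with a log2 ratio of -3.68 and Il1r2 with -2.90. Against RUNX1mut, none was at least 2-fold higher (3.97%), and Il1b with -1.43 and Casp4 with -1.17 were at least 2-fold lower (4.39%). Against Control, none was at least 2-fold higher (6.66%), and Il1b with -1.33 and Il1r2 with -2.09 were at least 2-fold lower (5.88%). For RUNX1mut over Control, Casp4 was at least 2-fold higher with a log2 ratio of 1.49 (5.36% of all genes) and Il1r2 at least 2-fold lower with -1.19 (3.56%). For HMGA2-OE over Control, Il1b was at least 2-fold higher with a log2 ratio of 2.35 (3.27%) and no member was at least 2-fold lower (3.19%). The pairs share libraries, so their counts are not independent. With TPM as deposited, 3 members were at least 2-fold higher in RUNX1mut/HMGA2-OE over HMGA2-OE (Pycard, Casp1 and Casp4), where the median of all genes was itself 1.02.

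The 3 members at least 2-fold apart in any of these pairs, Il1b, Il1r2 and Casp4, share a feature of their annotation. Each has an annotated transcript of 350 to 420 nt in GENCODE M21 (379 nt for Il1b, 366 nt for Il1r2, 361 nt for the shorter of 2 in Casp4), and none of the other 6 tested members has one. Such a transcript is far shorter than the longest of the gene, which is 1356 nt for Il1b, 1419 nt for Il1r2 and 1901 nt for Casp4. Of the 9820 genes of the fit 9686 have an entry in GENCODE M21, and among these, those with a transcript of that length were at least 2-fold apart more often than the rest in each pair. The shares were 20.4% of 2494 such genes against 6.10% of 7192 others for RUNX1mut/HMGA2-OE over HMGA2-OE, and 20.9% against 3.73% over RUNX1mut. They were 24.98% against 8.02% for RUNX1mut/HMGA2-OE over Control, 15.5% against 6.59% for RUNX1mut over Control, and 16.8% against 2.75% for HMGA2-OE over Control. These are shares of single pairs. The share over any pair, which would match the count of 3 members, was not taken. The table holds genes and not transcripts, so how much of each gene's TPM was assigned to the short transcript is unknown, and its part in the values of Il1b, Il1r2 and Casp4 was not tested. In the comparison of HSC/P with Ly6G+ cells the log2 differences of Il1rn and Il1f9, which have no such transcript, lay between those of Il1b and Il1r2. The range of 350 to 420 nt was not planned beforehand. It leaves out the shortest transcripts of Il1rn (321 nt) and Pycard (493 nt), and how the split of the members depends on its limits was not tested.

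**Figure D3:**
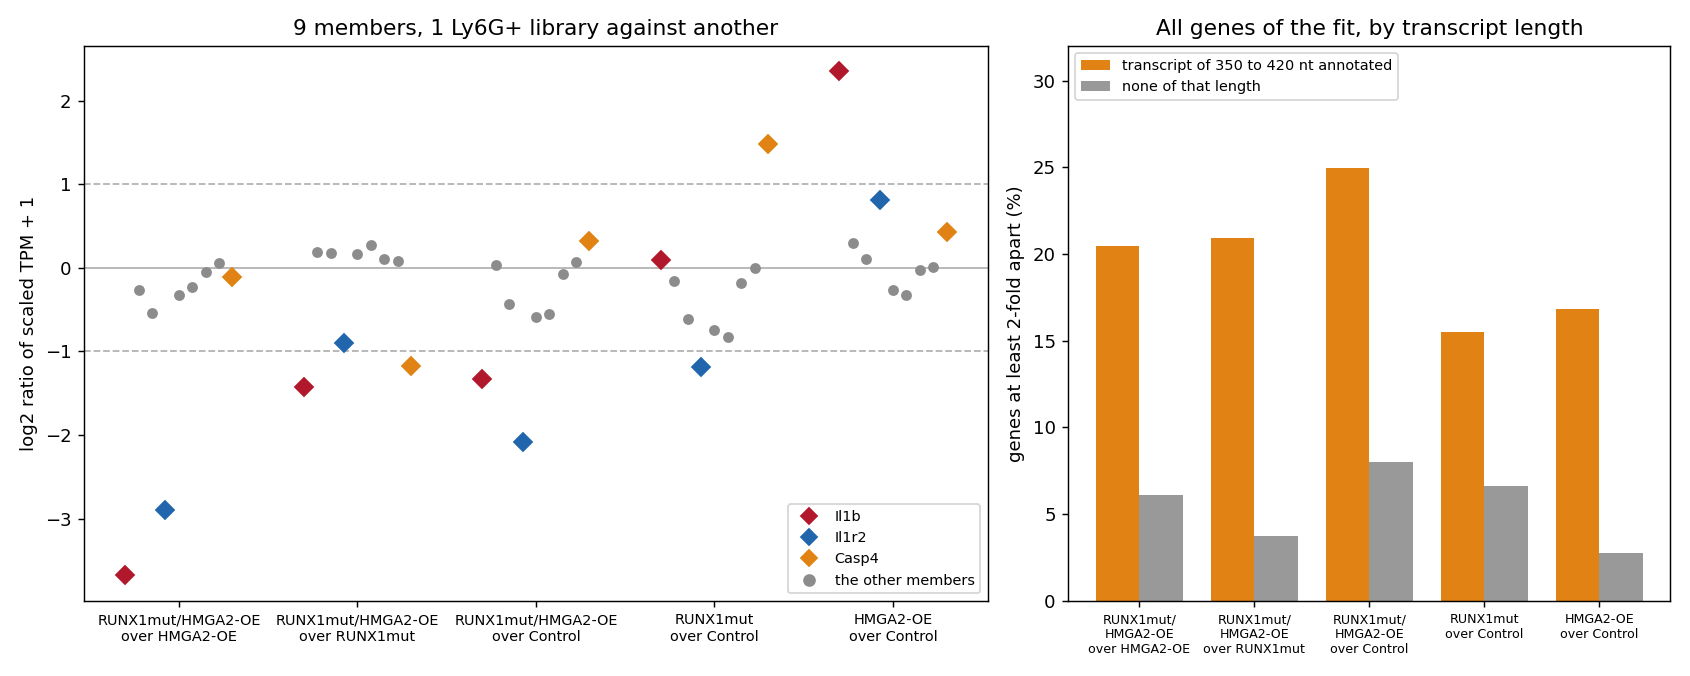
Left, log2 ratio of scaled TPM with 1 TPM added between single Ly6G+ libraries for 9 members in 5 pairs, with dashed lines at 2-fold and diamonds for members with an annotated transcript of 350 to 420 nt. Right, the percentage of genes of the fit at least 2-fold apart in the same pairs, for 2494 genes with such a transcript and 7192 without: Il1b, Il1r2 and Casp4 are the members that pass the dashed lines, and the share of genes with a short transcript is higher in all 5 pairs.

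The signalling adaptor Myd88 shared with Il1b a peak in the HMGA2-OE Ly6G+ library, with 124 TPM in RUNX1mut/HMGA2-OE, 111 TPM in RUNX1mut, 464 TPM in HMGA2-OE and 84.7 TPM in Control. It too has an annotated transcript of 379 nt. Of the 13 signalling genes 4 have a transcript of 350 to 420 nt. Of these 4, 3 (Myd88, Irak1 and Tab3) were at least 2-fold apart in some pair, against 0 of the other 9. The share of all genes that were so in any pair was not taken, so this count has no matching background. The log2 ratio of HMGA2-OE over Control was 2.82 for Myd88, 1.34 for Irak1, a kinase of the receptor complex, and 1.23 for Tab3, an adaptor of TAK1. Other lists held genes that were 2-fold apart without such a transcript. The proteases Elane, Prtn3 and Ctsg had log2 ratios of 1.03, 1.07 and 1.20 for HMGA2-OE over Control, and of 2.96, 2.32 and 2.31 for RUNX1mut over Control. Elane was at 101 TPM in RUNX1mut/HMGA2-OE, 153 TPM in RUNX1mut, 26.7 TPM in HMGA2-OE and 16.6 TPM in Control. Gbp2, an interferon-induced GTPase linked to inflammasome activation, had 1.51 for RUNX1mut over Control. Mefv, which encodes the sensor pyrin, had -1.55 for RUNX1mut/HMGA2-OE over HMGA2-OE. Among genes that IL-1 and NF-kB induce, Ccl4 had -1.45 and Ccl3 -1.41 in that pair, and Ptgs2, which has such a transcript, had -1.50 for RUNX1mut over Control. Aim2, also with such a transcript, had 1.27 for HMGA2-OE over Control and -1.83 for RUNX1mut/HMGA2-OE over HMGA2-OE. Il1rl1, again with one, was at 0.402 to 1.53 TPM in the 3 Ly6G+ libraries with either change against 9.16 TPM in Control, with log2 ratios over Control of -2.50 to -2.82.

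Whether the difference between RUNX1mut/HMGA2-OE and HMGA2-OE was the same in both cell types was tested as an interaction in the 5 libraries with HMGA2-OE. None of 12686 genes passed (0% called by limma, with 2297 at an unadjusted p under 0.05 and a smallest adjusted p of 0.122). For Il1b the log2 ratio was 0.23 and -0.39 in the 2 HSC/P libraries and -3.75 in Ly6G+ cells with the 5 libraries scaled together, an interaction of 3.68 ± 0.51 (adjusted p = 0.165). For Il1r2 the ratio was -1.41 and -0.92 in HSC/P and -2.98 in Ly6G+ cells, an interaction of 1.82 ± 0.43 (adjusted p = 0.228). Il1f9 had the opposite order, with -1.84 and -1.98 in HSC/P and -0.33 in Ly6G+ cells, an interaction of -1.58 ± 0.21 (adjusted p = 0.165). Without 1 of the RUNX1mut/HMGA2-OE HSC/P libraries the other 6 libraries were fitted, with HMGA2-OE as an additive term. That fit takes in the RUNX1mut and Control Ly6G+ libraries, so its Ly6G+ difference averages the pairs with and without HMGA2-OE. The contrast therefore changes along with the library left out. The interaction of Il1b was then 1.54 and 2.05, those of Il1r2 were 1.33 and 0.97, and those of Il1f9 were -1.48 and -1.36. In the fit to 5 libraries the other 6 tested members had interactions between 0.06 for Casp1 and 0.37 for Casp4. The Ly6G+ side of each of these rests on 1 library per genotype.

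**Figure D4:**
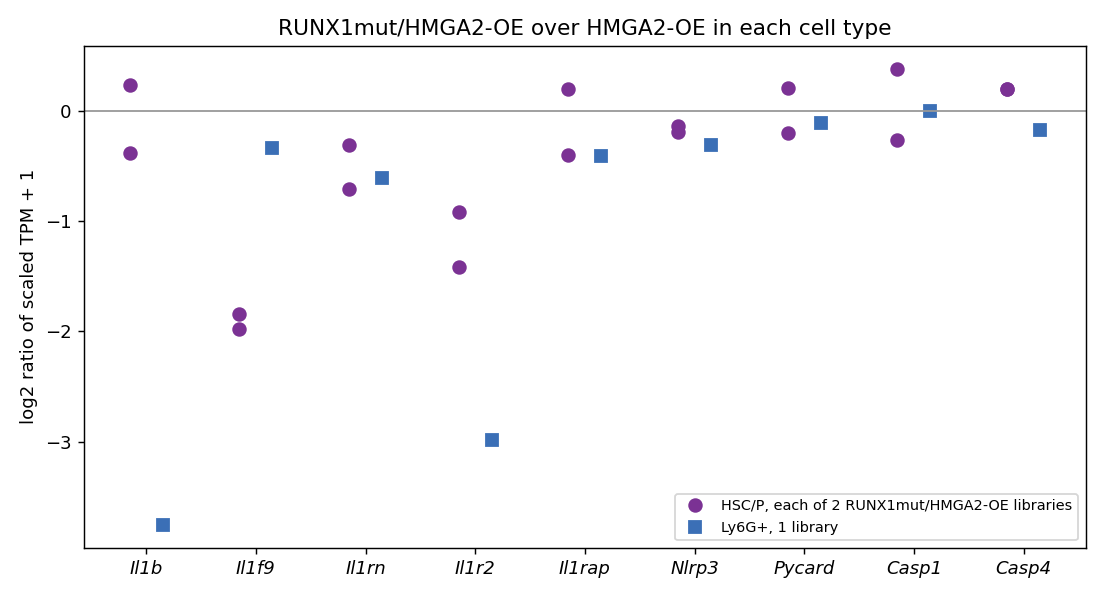
Log2 ratio of scaled TPM with 1 TPM added, RUNX1mut/HMGA2-OE over HMGA2-OE, for 9 members in HSC/P (circles, each of the 2 RUNX1mut/HMGA2-OE libraries over the 1 HMGA2-OE library) and in Ly6G+ cells (squares, 1 library over 1). Il1b lay at -3.75 in Ly6G+ cells and on both sides of 0 in HSC/P, and Il1f9 at -1.84 and -1.98 in HSC/P and -0.33 in Ly6G+ cells.

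The members fell into patterns that can be described by the root mean square difference of log2 scaled TPM, centred per gene, over the 7 libraries. The nearest members were Pycard and Casp1 at 0.27, and Il1rn and Il1f9 at 0.45. Casp4 was nearest to Casp1 at 0.51, Il1rap to Nlrp3 at 0.48, and Il1r2 to Il1rn at 0.72. Il1b had no near partner, its closest member being Il1r2 at 1.48. Among 8713 genes that reached 10 TPM in a library, the 5 nearest to Il1b were Mmp8 at 1.13, Ccl6 at 1.13, Cyp4f18 at 1.21, Retnlg at 1.24 and Mmp9 at 1.25, of which Mmp8, Retnlg and Mmp9 are also among the neutrophil markers. Those nearest to Nlrp3 were Slc35d2, Efhd2, Asb7, Nfe2 and Rps6ka1, at 0.12 to 0.13. Those nearest to Casp1 were Ncln, Naip2, Tgfbr1, Stat5b and Ncstn, at 0.11 to 0.12, of which Naip2 is itself an inflammasome sensor gene. The 7 points of each comparison share 2 cell types and the scaling of each library.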

How the data were processed

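The authors deposited 1 table of TPM per gene for 28987 genes and 7 libraries; no header names the unit, which was read from the values and their column sums. The submitters' processing notes name CASAVA 1.8, bcl2fastq, kallisto and mm10; no source used here states the kallisto version, the annotation or any use of strand. Counts cannot be had from TPM, so depth is unknown and no counting interval is given. All 7 columns matched a label, and 0 columns were left unused.

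Within each fit libraries were scaled with trimmed-mean factors, computed on log ratios without weights (log ratios trimmed by 0.3 and mean levels by 0.05), and kept genes at 1 TPM or more in at least 2 of its libraries. limma 3.58.1 (R 4.3.3), with a trend in the variance, was run on log2(scaled TPM + 1) over all genes kept, and two-sided p-values were adjusted by the Benjamini-Hochberg method, with a threshold of 0.05. Fold changes are on this log2(TPM + 1) scale, which understates those of low genes. Errors given with a log2 difference are standard errors. Single Ly6G+ libraries were compared as ratios with a 2-fold limit and no test. Fits were tested on simulated data.

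Gene places and transcripts came from GENCODE M21, which holds 27458 of the table's identifiers, and promoters from RefSeq. Python 3.11.15 with NumPy 2.4.6 and matplotlib 3.10.9 was used for these and the figures. The members and the gene lists were chosen with earlier results of these data known. Named genes were all 10 members, the pathway genes that passed a test, and the 5 genes nearest in pattern to Il1b, Nlrp3 and Casp1; other pathway genes were named after their values were seen. The alternatives were other scalings, pseudocounts (0.1 and 5 TPM) and filters (none and 5 TPM), other sets of libraries and each library left out; scaling over genes with no transcript of 350 to 420 nt, the cell-type interaction fitted to 7 libraries with 1 left out, and the test of the RUNX1 mutation with against without HMGA2-OE in Ly6G+ cells, were added after seeing the data.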

Additional observations from a re-analysis of the deposited data

Results flagged for a closer look

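For 3 of the 9 tested members the 2 single-library ratios of the RUNX1 mutation in Ly6G+ cells had opposite signs with and without HMGA2-OE. The difference was tested with limma in a fit of 6 group means to all 7 libraries. Its 1 residual degree of freedom comes from the RUNX1mut/HMGA2-OE HSC/P pair, and the single Ly6G+ libraries are assumed to vary like that pair. With the 7 libraries scaled together, this fit gave a difference of -3.76 for Il1b, -1.60 for Casp4 and 0.0868 for Casp1. The adjusted p-values below belong to these fitted differences, and the ratios below to the scaling of the 4 Ly6G+ libraries. None of 12881 genes passed, and 1736 had an unadjusted p under 0.05. For Il1b the log2 ratio was -3.68 with HMGA2-OE (RUNX1mut/HMGA2-OE over HMGA2-OE) and 0.10 without it (RUNX1mut over Control), a difference of -3.78 (adjusted p = 0.200). For Casp4 it was -0.11 with HMGA2-OE and 1.49 without it, a difference of -1.59 (adjusted p = 0.161). With TPM as deposited both ratios of Casp4 were positive, 1.03 with HMGA2-OE and 1.65 without it. For Casp1 it was 0.06 with and -0.01 without, a difference of 0.0702 (adjusted p = 0.998), and both were positive with TPM as deposited. Il1a, which was under 1 TPM throughout and not tested, had -0.09 with and 0.21 without.

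With TPM as deposited Casp4 was higher in RUNX1mut/HMGA2-OE than in HMGA2-OE in both cell types. It was at 31.0 and 31.4 TPM against 24.2 TPM in HSC/P, and at 31.7 TPM against 15.0 TPM in Ly6G+ cells. After scaling, Casp4 had opposite signs in the 2 cell types for RUNX1mut/HMGA2-OE over HMGA2-OE. The log2 ratio was 0.20 and 0.19 in the 2 HSC/P libraries and -0.18 in Ly6G+ cells, a difference of 0.37, which did not pass as an interaction (limma, adjusted p = 0.401).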

How the results depend on the processing

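With TPM as deposited, 1 gene was called between RUNX1mut/HMGA2-OE and HMGA2-OE in HSC/P, 133 for the RUNX1 term and 61 for the HMGA2-OE term in Ly6G+ cells, against 0 in each after scaling. The call count of members between HSC/P and Ly6G+ cells was then 5, and 5 with S100a8 and S100a9 taken out, against 9. Fitted differences of members that changed sign with TPM as deposited included those of Pycard (0.999), Casp1 (0.46) and Casp4 (0.27) between HSC/P and Ly6G+ cells. They also included Il1rn for the RUNX1 term (0.10) and Il1r2 for the HMGA2-OE term (0.072). With S100a8 and S100a9 taken out, that of Pycard (0.43) changed sign between HSC/P and Ly6G+ cells. Among the pathway genes Tollip, Traf6, Naip2, Naip5, Nek7, Capn1 and Rel turned positive in that comparison with TPM as deposited. Of these Traf6, Naip5, Nek7 and Capn1 were also positive with S100a8 and S100a9 taken out. Of the called genes in HSC/P against Ly6G+ cells 87.9% were higher with TPM as deposited, 77.8% with S100a8 and S100a9 taken out, 65.0% with upper-quartile scaling, 48.9% with median-of-ratios scaling and 48.0% with scaling over genes without a short transcript. Among single Ly6G+ libraries, TPM as deposited gave 3 members at least 2-fold higher for RUNX1mut/HMGA2-OE over HMGA2-OE, 0 lower over RUNX1mut, and 1 higher and 1 lower over Control. The ratio changed sign then for 6 of 9 members over HMGA2-OE, all but Il1b, Il1r2 and Casp1, for 0 over RUNX1mut and for 4 over Control, and for 2 members in RUNX1mut and 3 in HMGA2-OE over Control.

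The HMGA2-OE term called 58 genes in all 7 libraries and 47 to 170 with 1 Ly6G+ library left out of them. Leaving out 1 library gave -1.41 to 2.30 for Il1b, -0.96 to 0.85 for Il1r2 and -1.12 to 0.32 for Casp4 in that term, and -0.0014 to 0.70 for Casp4 and -1.67 to -0.04 for Il1b in the RUNX1 term. The interaction called 3250 genes with no filter and 1 with a filter at 5 TPM, and that of the RUNX1 mutation with HMGA2-OE 4181 and 3, where Casp4 passed with no filter (-1.65, adjusted p = 0.0248). The cause of these changes was not tested. Over all alternatives 588 member values counted as the same, 14 as reversed, 9 lost their call and 1 gained one. The same meant, for a fitted difference, an unchanged direction and side of the threshold. For a single-library ratio it meant a move smaller than the gene's residual spread in the additive Ly6G+ fit, so such a ratio could still cross the 2-fold limit. The other 44 ratios moved by at least that spread. No paired analysis was run. The replicate numbers count libraries within a group, and the labels used here do not link libraries of the same mouse. Each Ly6G+ genotype is 1 library, and 1 or 2 residual degrees of freedom limit every test.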
